A study of Homo sapiens with 8 samples.

Results

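Amino acid transporters of the plasma membrane were followed in HaCaT cells, an immortalized line of human keratinocytes. The group holds 10 genes, SLC7A5, SLC3A2, SLC7A11, SLC1A5, SLC1A4, SLC7A1, SLC38A1, SLC38A2, SLC6A9 and SLC43A1, out of 17131 genes in the table. They were selected on their estimated counts in the libraries titled M5_O5 against those titled M5, within this family, so their values in that comparison were known, and their differences between the groups are given as a description, without a p-value. All 10 genes were listed, 9 passed the filter on low counts, and SLC43A1 did not.

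RNA of wild-type HaCaT cells was sequenced as 8 libraries, 4 titled M5_O5 and 4 titled M5. M5 is a mixture of 5 cytokines (IL-17A, IL-22, IL-1α, TNF-α and oncostatin M), given at 10 ng/mL each for 24 h as a model of psoriatic keratinocytes, and by the titles all libraries are from cells that received it. OTS514 inhibits the kinase TOPK, the product of PBK, and was described as given at 10 nM for 12 h before M5 and then together with it. M5_O5 in a title would be read as M5 plus OTS514, yet no treatment is entered for those libraries, and the entry for the libraries titled M5 is the TOPK inhibitor. Which group received OTS514 therefore cannot be told from the labels, and each direction below is given between the titles only. The cells are 1 immortalized line and not psoriatic skin, and nothing says whether the replicates came from separate cultures, so p-values measure the spread between these libraries, which may be technical.

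Cells take up most amino acids through carriers of the solute carrier (SLC) families. Some of these carriers use the sodium gradient to pull neutral amino acids in, and others are exchangers that release one amino acid for each one imported. SLC7A5 and SLC7A11 are exchangers that reach the cell surface only when bound to the heavy chain SLC3A2. Keratinocytes need amino acids for growth and for the proteins of the cornified layer, and many of the carrier genes are induced through the transcription factor ATF4 when amino acids run short.

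The estimated counts summed to between 16113015 and 16922693 in a library titled M5_O5 and to between 13708055 and 16847599 in one titled M5. All 10 keratinocyte markers passed the filter, with a summed level of 19797 to 22504 counts scaled to library size (CPM) in M5_O5 and 23956 to 26912 in M5. Fibroblast markers summed to 33.1 to 36.6 CPM in M5_O5 and 43.1 to 58.3 in M5, nearly all of it COL1A1, while COL1A2 and COL3A1 were listed at 0 in the M5_O5 libraries. Leukocyte markers summed to 79.6 to 98.1 CPM in M5_O5 and 94.2 to 126 in M5, mostly CD14 and CD68, with PTPRC and CD79A at 0. The 5 melanocyte markers summed to at most 1.15 CPM. PBK was at 3.6, 2.93, 2.25 and 3.15 CPM in M5_O5 and at 2.63, 0.588, 0.987 and 0.685 CPM in M5. Its log2 fold change, with the standard error (SE), was 1.32 ± 0.34 (edgeR's quasi-likelihood test, adjusted p = 0.00738), and 1.98 without M5 replicate 1. In estimated counts, M5_O5 replicate 1 differed more from replicates 2 and 3 of its group than these did from each other. M5 replicate 1 stood apart from its group as well. The 20 genes of dividing cells summed to 281 CPM in that library, to between 133 and 147 CPM in the other M5 libraries and to between 353 and 373 CPM in M5_O5, and results that turn on it are given with and without it. Of the 20 genes, 17 were higher in M5_O5 at an adjusted p under 0.05 and at least 2-fold, against 2.87% of tested genes. This list, like the transporter genes, was chosen with earlier results of these data known. In bulk RNA, fewer cells of a kind and less RNA per cell cannot be told apart.

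The start regions of these genes were read for short motifs after 7 of the 9 tested genes lay on the same side of 0 in the comparison of the groups. The genes were chosen on that comparison, and whether the motifs bear on its direction was not tested. RefSeq start windows of GRCh38.p14, 250 bases before to 50 bases after each annotated start, were found for 9 of the 10 genes, 16 windows in all. SLC7A11 had no window and was not searched for any motif, while SLC43A1 was searched. The letters TGATGNAA, the core of the element bound by C/EBP and ATF proteins, were searched on both strands. They occurred in windows of 5 of the 9 genes with a window, and in windows of 4.46% of all 27305 genes in the table. Counted by window, they occurred in 5 of the 16 windows and in 3.62% of all 35116 windows. The sites are shown with ASNS and CHAC1, known targets of ATF4, for comparison. Capitals mark the 8 matched bases, and each run is written 5′ to 3′ along the gene.
SLC1A4: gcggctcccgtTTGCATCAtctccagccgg
SLC7A1: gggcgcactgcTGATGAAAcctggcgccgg
SLC38A1: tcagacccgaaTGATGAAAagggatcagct
SLC1A5: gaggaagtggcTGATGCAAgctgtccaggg
SLC3A2: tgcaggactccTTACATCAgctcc
ASNS: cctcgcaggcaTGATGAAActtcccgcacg
CHAC1: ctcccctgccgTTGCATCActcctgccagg

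The SLC1A4 run lies at chr2:64989381-64989410 on the plus strand, and its match is on the opposite strand with the first base 7 bases before the start. The SLC7A1 run lies at chr13:29595663-29595692 on the minus strand, with the match at position 8 of the transcript. For both genes the start is that of the transcript with most of the counts. The SLC38A1 run lies at chr12:46266502-46266531 (minus strand, 4 bases before the start), the SLC1A5 run at chr19:46784893-46784922 (minus strand, 97 bases before) and the SLC3A2 run at chr11:62881725-62881748 (plus strand, position 38 of the transcript). These 3 windows belong to other starts of their genes than that of the most counted transcript. The SLC1A5 start is that of NM_001145145, with 0.0% to 1.2% of the SLC1A5 counts. The SLC3A2 start is that of NR_037193, which is not among the counted SLC3A2 transcripts. The starts used for SLC38A1 and CHAC1 had no RefSeq transcript within 50 bases. The ASNS run lies at chr7:97872458-97872487 (minus strand, 68 bases before the start) and the CHAC1 run at chr15:40953251-40953280 (plus strand, 209 bases before).

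The E-box CACGTG occurred in windows of SLC7A5, SLC1A5 and SLC43A1, against 8.77% of all genes. The SLC7A5 window is shown because it is the most abundant of the exchangers and its window, at the start of its main transcript, holds the E-box 130 bases before the start.
SLC7A5: gccggacgacgCACGTGctccgagctgg
This run lies at chr16:87869621-87869648 on the minus strand. TGACNNNGC, the core of the antioxidant response element, occurred in windows of SLC7A5, SLC3A2, SLC7A1 and SLC1A5, against 16.1% of all genes. Matches are letters in a window and not binding sites.

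By level per transcript length (TPM, which scales each library to a fixed sum), SLC7A5, SLC38A2 and SLC3A2 made up most of the transporter RNA. They held 76.4% to 78.4% of the summed TPM of the 10 genes in M5_O5 and 78.1% to 80.2% in M5. In M5_O5 the order was SLC7A5 at 508 ± 41.4 TPM (SD, n = 4), SLC38A2 at 409 ± 46.6, SLC3A2 at 378 ± 18.4, SLC1A5 at 137 ± 14.5, SLC7A1 at 92.6 ± 5.13, SLC38A1 at 74 ± 2.92, SLC6A9 at 47.6 ± 3.1, SLC1A4 at 27.6 ± 3.31 and SLC7A11 at 4.43 ± 0.656. Of these neighbours, SLC38A2 and SLC3A2 overlapped in range. In M5 the order began with SLC38A2 at 428 ± 83.4 TPM and SLC7A5 at 412 ± 40.3, which overlapped, followed by SLC3A2 at 265 ± 29.2. SLC1A5 followed at 99.3 ± 7.67 TPM, and SLC7A1 at 65.9 ± 9.3 overlapped with SLC38A1 at 56.9 ± 6.69. SLC6A9 at 35.8 ± 6.55, SLC1A4 at 27.3 ± 1.56 and SLC7A11 at 2.13 ± 0.454 TPM did not overlap with their neighbours. SLC43A1 was the lowest in both groups, at no more than 0.14 TPM. The deposited FPKM gave the same order for 10 of 10 genes in both groups. Within a library FPKM and TPM differ only by a common factor, so this order is not a separate check.

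**Figure D1:**
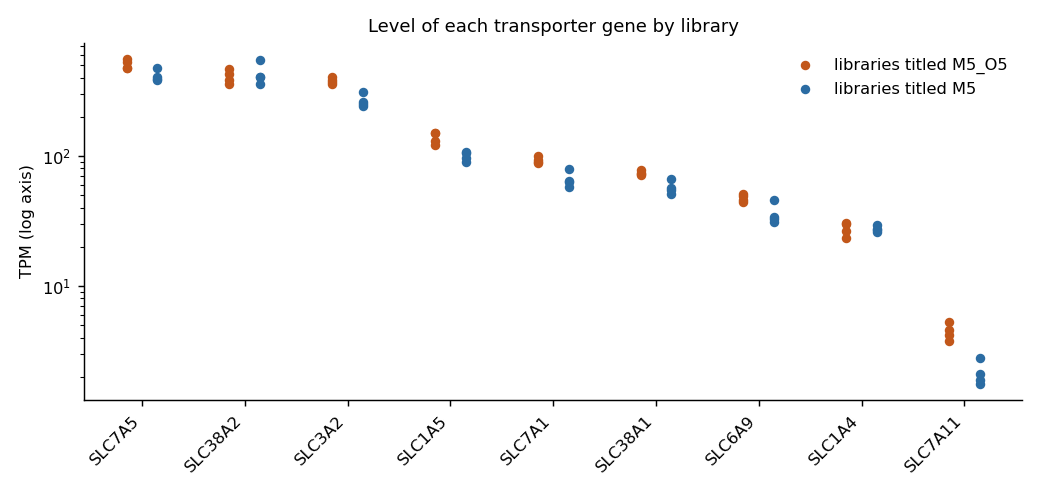
TPM on a log axis for the 9 tested transporter genes, ordered by mean TPM in M5_O5, with 1 point for each of the 8 libraries, coloured by title. SLC7A5, SLC38A2 and SLC3A2 lie between 244 and 557 TPM in every library, and SLC7A11 lies between 1.76 and 5.29 TPM.

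The summed TPM of the 10 genes was 1666, 1686, 1726 and 1635 in M5_O5 and 1655, 1291, 1294 and 1326 in M5. M5 replicate 1 lay within the range of the M5_O5 libraries, and the other M5 libraries lay below it. The median TPM over all tested genes moved in the same way, from 14.6 to 16 in M5_O5, 15.4 in M5 replicate 1 and 12.9 to 13.6 in the other M5 libraries, so differences between the groups are given on CPM scaled by TMM below.

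Across the 9 tested genes the median log2 fold change of M5_O5 over M5 was 0.31, and over all 12434 tested genes it was 0.01. The value was above 0 for 7 genes and below 0 for 2, against 51.8% of all tested genes above 0. At an adjusted p under 0.05 and a fold of at least 2, 0 of the 9 genes were called in edgeR, against 2.87% of tested genes called higher and 0.33% called lower. DESeq2 also called 0, and 0 genes had an unadjusted p under 0.05 with that fold, while 8 had such a p at any fold. At an adjusted p under 0.05 alone, 6 genes were called higher and 0 lower, against 19.5% and 17.6% of tested genes, and SLC7A5, SLC1A4 and SLC38A2 were not called. SLC7A5 was called higher in 8 of 17 alternatives, among them the fits without M5_O5 replicate 1 (0.23) and without M5 replicate 1 (0.20). Both scalings by library size and upper quartile, cyclic loess and the TPM fits also called it. With library size, upper quartile and TPM values the median of all tested genes was higher too, at 0.07 to 0.13. In 4 genes every M5_O5 library was above every M5 library, against 17.8% of tested genes, and in 0 genes every M5_O5 library was below, against 15.8%. Because the genes were chosen with these values known, the counts describe them and show nothing further. SLC7A11, at 1.96-fold, was the gene nearest to the fold threshold, and the next, SLC3A2, was at 1.32-fold.

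SLC3A2, the heavy chain (also called CD98 or 4F2hc) that carries several exchangers to the membrane, was at 342, 382, 398 and 341 CPM in M5_O5 and at 295, 277, 262 and 275 CPM in M5. Every M5_O5 library was above every M5 library, and the group means were 366 ± 28.4 and 277 ± 13.4 CPM. The log2 fold change was 0.40 ± 0.06 (SE). SLC7A5, the light chain LAT1 for leucine and other large neutral amino acids, was at 1156, 1400, 1451 and 1183 CPM in M5_O5 and at 1204, 1196, 1096 and 1097 CPM in M5. M5_O5 replicates 2 and 3 were above all M5 libraries, but replicates 1 and 4 lay within their range, and the log2 fold change was 0.18 ± 0.08. Pseudogene copies of SLC7A5 exist in the human genome, and reads shared with them could have been split by the authors' counting.

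SLC7A11, the light chain xCT that imports cystine for glutathione synthesis in exchange for glutamate, was at 20.3, 25.6, 23.8 and 23.2 CPM in M5_O5 and at 15.8, 9.93, 11.3 and 10.6 CPM in M5. The groups did not overlap, and M5 replicate 1 was the highest M5 library. The estimated counts behind these values were 350 to 446 in M5_O5 and 152 to 216 in M5. Of the 10 genes it had the largest log2 fold change, 0.97 ± 0.12, and 2.99% of all tested genes had a larger one. Without M5 replicate 1 the value was 1.13, and without M5_O5 replicate 1 it was 1.03, so that either fit placed SLC7A11 past the fold threshold and raised the count of called genes from 0 to 1. The summed genes of dividing cells were likewise highest in M5 replicate 1 among the M5 libraries. Their part in the SLC7A11 difference was not tested.

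**Figure D2:**
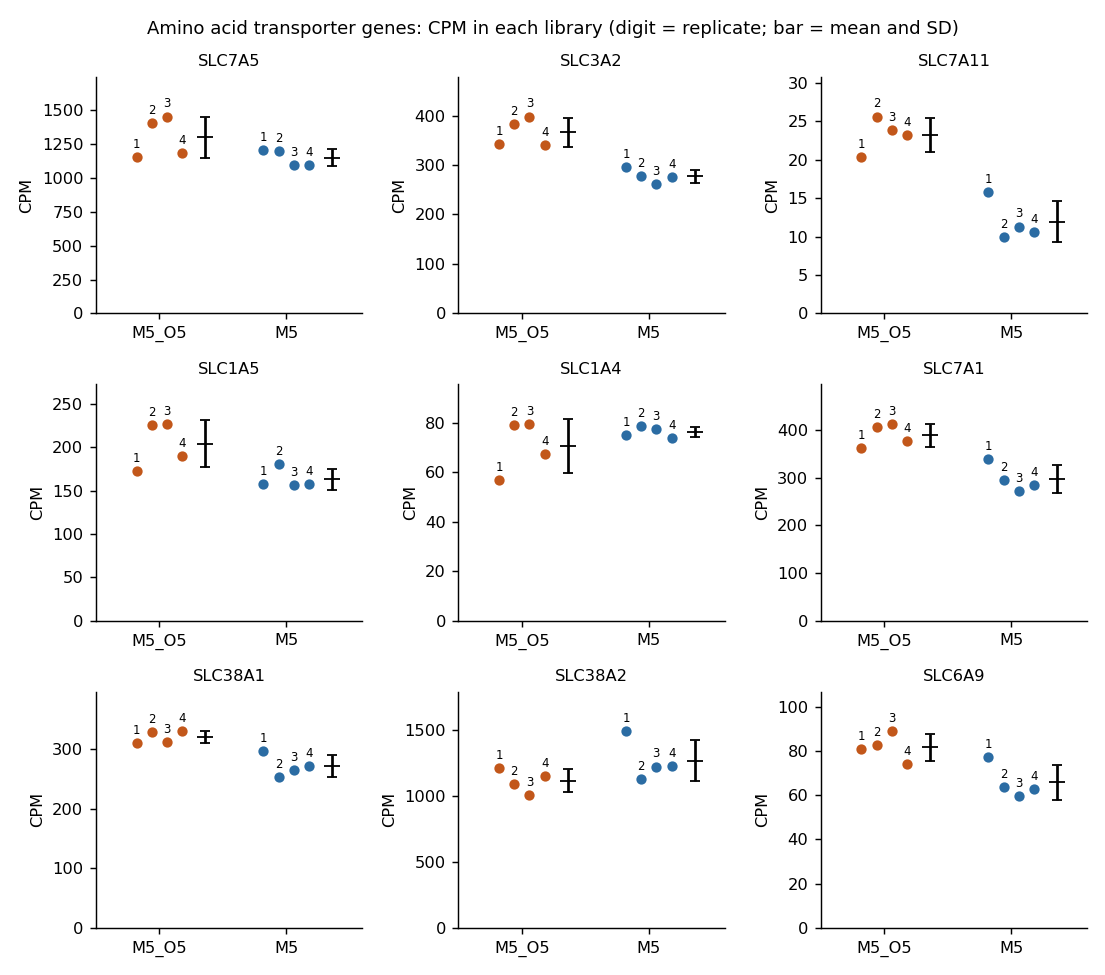
CPM of the 9 tested transporter genes in each library, with the replicate number above each point and the mean and SD of the 4 libraries beside it, on linear axes that start at 0. SLC7A11, SLC3A2, SLC7A1 and SLC38A1 show no overlap between the titles, and SLC1A4 has the widest relative spread within M5_O5, from 56.7 to 79.5 CPM.

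SLC1A5 (ASCT2), a sodium-dependent exchanger that imports glutamine, was at 173, 226, 227 and 190 CPM in M5_O5 and at 157, 181, 156 and 157 CPM in M5. M5_O5 replicate 1 lay below M5 replicate 2, so the groups overlapped, with means of 204 ± 26.8 and 163 ± 12 CPM and a log2 fold change of 0.33 ± 0.08. Its relative SLC1A4 (ASCT1), a sodium-dependent carrier of alanine, serine and cysteine, was at 56.7, 78.8, 79.5 and 67.2 CPM in M5_O5 and at 74.9, 78.5, 77.5 and 73.9 CPM in M5. The M5_O5 libraries lay on both sides of the narrow M5 range, and the means were 70.6 ± 10.8 and 76.2 ± 2.16 CPM. The log2 fold change was -0.11 ± 0.09 and changed sign with the scaling, to 0.01 on log2(TPM + 1).

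SLC7A1 (CAT1), the main carrier of arginine and lysine, was at 362, 406, 413 and 376 CPM in M5_O5 and at 339, 296, 271 and 284 CPM in M5. The groups did not overlap, and the log2 fold change was 0.39 ± 0.07. SLC6A9 (GLYT1), a sodium- and chloride-dependent glycine carrier, was at 81, 82.7, 89 and 74 CPM in M5_O5 and at 77.4, 63.8, 59.4 and 62.6 CPM in M5. M5_O5 replicate 4 lay below M5 replicate 1, which was the highest M5 library for both genes, and the log2 fold change of SLC6A9 was 0.31 ± 0.08.

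SLC38A1 (SNAT1) and SLC38A2 (SNAT2) bring glutamine and other small neutral amino acids in with sodium. SLC38A1 was at 310, 328, 311 and 330 CPM in M5_O5 and at 297, 253, 264 and 272 CPM in M5. All M5_O5 libraries were above all M5 libraries, and the log2 fold change was 0.24 ± 0.06. SLC38A2 was at 1209, 1093, 1007 and 1153 CPM in M5_O5 and at 1491, 1129, 1222 and 1224 CPM in M5. The groups overlapped, with the highest value in M5 replicate 1, and the log2 fold change was -0.18 ± 0.08. Without M5 replicate 1 it was -0.10, and under cyclic loess scaling it was 0.01. SLC43A1 (LAT3), a sodium-independent carrier of branched-chain amino acids, had 2, 2, 1 and 1 counts in the M5_O5 libraries and 0, 2, 3 and 0 in the M5 libraries, which is too few for a comparison at this depth.

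**Figure D3:**
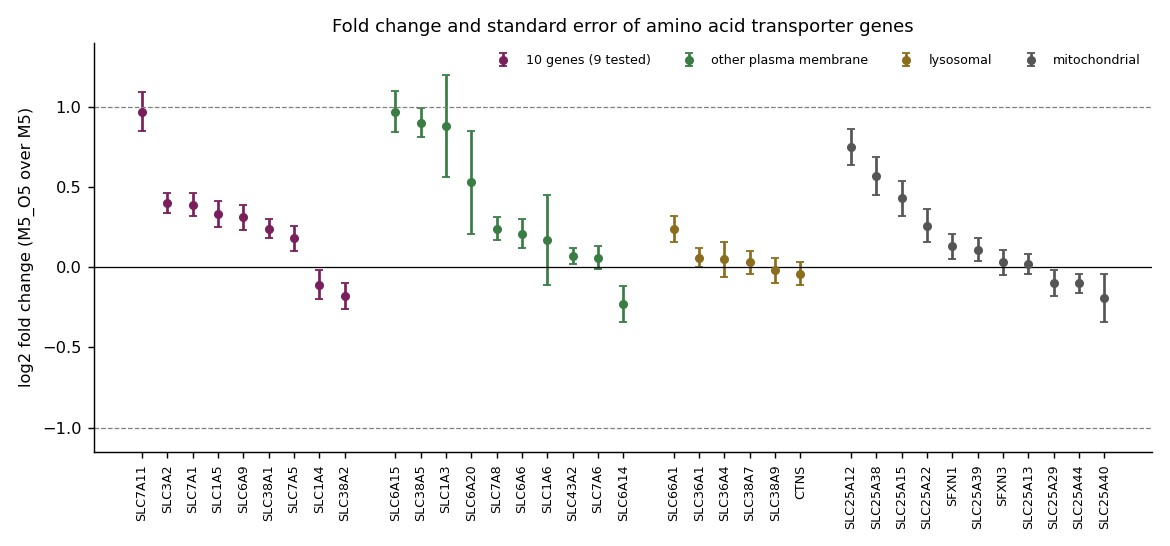
Log2 fold change of M5_O5 over M5 with its standard error for the 9 tested genes and for the tested genes of 3 further transporter lists, each sorted by value. The dashed lines mark a fold of 2 in either direction. SLC7A11 at 0.97 leads the 9 genes, SLC1A4 at -0.11 and SLC38A2 at -0.18 lie below 0, and the lysosomal genes lie between -0.04 and 0.24.

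The unequal differences changed the proportions between related carriers, as a ratio of TPM within each library shows without regard to library scaling. SLC7A5 over SLC3A2 was 1.28, 1.39, 1.38 and 1.32 in M5_O5 and 1.53, 1.62, 1.58 and 1.5 in M5. The ratio of the light chain to its heavy chain was thus lower in every M5_O5 library, with means of 1.34 ± 0.0508 and 1.56 ± 0.0555. With the other listed light chains, among them SLC7A6, SLC7A8 and SLC7A11, added to SLC7A5, the means were 1.44 ± 0.0492 and 1.67 ± 0.0553. SLC7A5 over SLC7A11 was 116 ± 11.8 in M5_O5 and 197 ± 25.9 in M5. The cystine exchanger SLC7A11 thus formed a larger part of these 2 light chains in M5_O5.

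SLC1A5 over SLC1A4 was 5.18, 5.01, 4.88 and 4.84 in M5_O5 and 3.55, 4, 3.33 and 3.69 in M5. SLC38A2 over SLC38A1 was 6.29, 5.23, 5.05 and 5.5 in M5_O5 and 8.27, 7.03, 7.4 and 7.18 in M5. Both ratios separated the groups, in opposite directions with respect to the more abundant gene of each pair. They rest on the same contrast as the choice of the genes and carry no test.

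**Figure D4:**
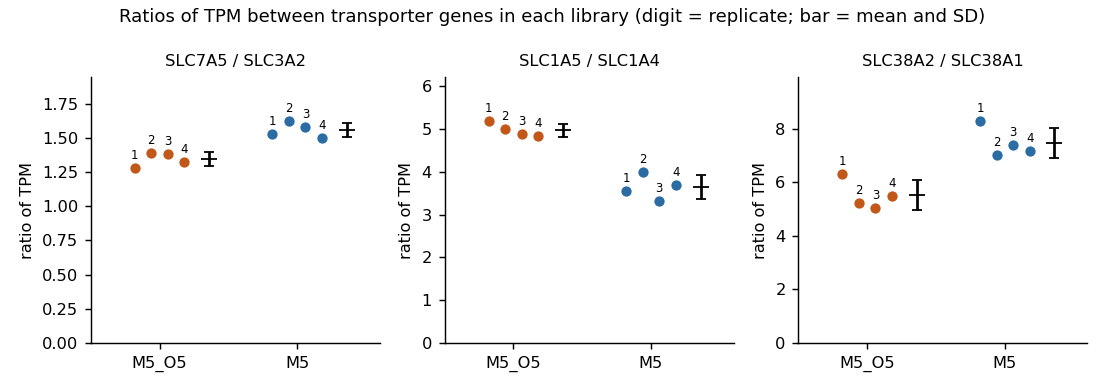
Ratio of TPM between related transporter genes in each library, with the replicate number above each point and the mean and SD of the 4 libraries beside it, on linear axes from 0. The M5_O5 means are 1.34, 4.98 and 5.52, and the M5 means are 1.56, 3.64 and 7.47, in the order of the panels.

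Within the groups, the genes fell into sets that varied together from library to library. SLC1A4 deviated from its group mean by -0.30, 0.17, 0.19 and -0.06 (log2 CPM) in the M5_O5 libraries, an SD of 0.23, against an SD of 0.04 in the M5 libraries. SLC7A5 with -0.16, 0.12, 0.17 and -0.13, SLC1A5 with -0.23, 0.16, 0.16 and -0.09 and SLC3A2 with -0.09, 0.06, 0.12 and -0.10 had the same shape, high in M5_O5 replicates 2 and 3 and low in replicates 1 and 4. In the M5 group replicate 1 deviated upward, by 0.43 in SLC7A11, 0.24 in SLC38A2, 0.24 in SLC6A9 and 0.19 in SLC7A1, while in SLC1A5 it was replicate 2, by 0.15.

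Over all 8 libraries with the group means removed, Pearson's r was 0.94 for SLC3A2 and SLC7A5, the heavy and light chain of LAT1, and 0.91 for SLC1A4 and SLC1A5. These are descriptions over points that share libraries and scaling, and they stayed at 0.95 and 0.91 over the 7 libraries without M5 replicate 1. M5_O5 replicate 1 was the lowest of its group for SLC7A5, SLC1A4 and SLC1A5, and r was not computed without that library. SLC38A2 ran the other way from SLC1A5, with r = -0.67 over 8 libraries and -0.92 over 7. The pair SLC7A1 and SLC6A9 had r = 0.90 with and 0.72 without M5 replicate 1, and SLC38A1 and SLC7A11 had 0.87 with and 0.59 without it. Of the 36 pairs, 31 were above 0 and 13 were at least 0.7 over 8 libraries, and 23 were above 0 and 14 at least 0.7 over 7.

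The genes ASNS, CHAC1, TRIB3, ATF4, PSAT1 and MKI67 were set beside them after their values had been seen. SLC1A4 varied most closely with the amino acid response genes, with r = 0.98 for CHAC1, 0.96 for ASNS, 0.94 for ATF4 and 0.93 for TRIB3. SLC1A4 varied mostly within M5_O5 (SD 0.23, against 0.04 in M5). Of the M5_O5 libraries, replicate 1 was the lowest for SLC1A4 and for each of these response genes. The correlations were not computed without that library. SLC1A5 had 0.92 for ASNS and 0.88 for ATF4, and SLC7A5 had 0.93 and 0.71. SLC38A2 had -0.80 for ATF4. SLC7A11 had 0.92 for PSAT1 and 0.85 for the proliferation gene MKI67, but without M5 replicate 1 the values were 0.79 and -0.02. The same omission moved SLC7A11 from 0.00 to 0.73 for ATF4 and from -0.03 to 0.77 for TRIB3. SLC7A1 and SLC6A9 had r = 0.82 and 0.80 for MKI67 and 0.42 and 0.10 without that library, and SLC7A1 moved from 0.20 to 0.84 for ATF4.

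**Figure D5:**
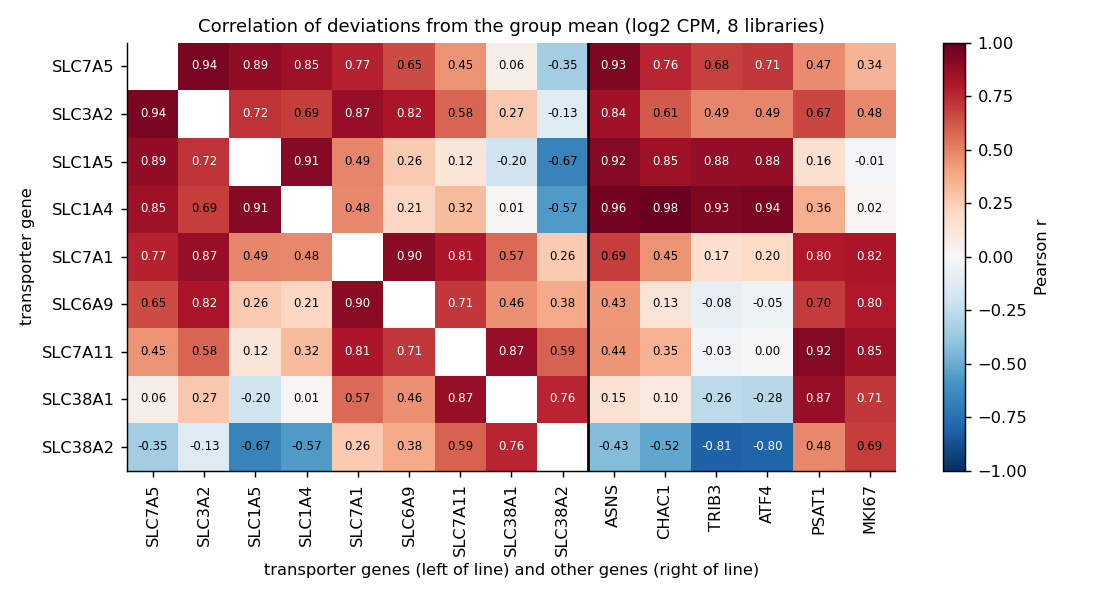
Pearson's r of the deviations from the group mean in log2 CPM over 8 libraries, for each pair of the 9 tested transporter genes (left of the line) and for each of these with 6 other genes (right of the line). SLC7A5, SLC3A2, SLC1A5 and SLC1A4 form a positive set with r from 0.69 to 0.94, and SLC38A2 is negative with each of these 4 genes, from -0.67 to -0.13.

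Most of the transporter genes were represented by 1 transcript. The share of estimated counts of the leading transcript was 98.2% to 99.4% for SLC7A5 (NM_003486), at least 95.5% for SLC7A11 (NM_014331), 95.2% to 97.1% for SLC3A2 (NM_001013251) and 94.5% to 97.1% for SLC38A2 (NM_018976). It was 90.5% to 98.2% for SLC1A5, 86.5% to 96.4% for SLC1A4, 84.1% to 96.3% for SLC7A1 and 82.4% to 92.8% for SLC6A9. SLC38A1 was divided between NM_030674, with 35.3% to 61.2%, and NM_001077484, with 28.4% to 56.6%, and the ranges show how loosely estimation divides reads between such transcripts.

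A few minor transcripts had a larger ratio between the titles than their genes, and they were picked for this after their values were seen. SLC3A2 transcript NM_002394 had 142, 133, 139 and 88.7 estimated counts in M5_O5 and 38, 36.6, 31.9 and 50.6 in M5. Its share of SLC3A2 was 2.0% in M5_O5 and 0.9% in M5 on average. SLC38A1 transcript NM_001278387 had 310, 324, 379 and 317 counts in M5_O5 and 173, 152, 135 and 74.2 in M5, or 6.1% and 3.3% of the gene. SLC6A9 transcript XM_017002153 had 40, 43.5, 85.2 and 67 counts in M5_O5 and 1.2, 21.3, 8.91 and 0 in M5. In each case the groups did not overlap in these counts, which are not scaled to library size. No share over all transcripts is set beside this, and of the tested genes 17.8% separated in that direction. The values describe the picked transcripts only.

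The other amino acid transporters of the plasma membrane mostly had few or no counts. This list and those below were chosen with earlier results of these data known, so their counts and p-values are not independent of that choice. Of 28 such genes, 20 were listed and 10 passed the filter, and the 10 listed genes that did not pass had at most 7 counts in any library. Of the 10 tested, 4 were higher in M5_O5 at an adjusted p under 0.05 (edgeR, over all tested genes) and 0 were lower, against 19.5% and 17.6% of all tested genes, with a median log2 fold change of 0.23. At the additional fold of 2, 0 were called by edgeR, by DESeq2 or at an unadjusted p. SLC38A5 (SNAT5), a carrier of glutamine and histidine from the same family as SLC38A1 and SLC38A2, was at 43.1, 42.4, 48.1 and 38.8 CPM in M5_O5 and at 23.2, 26.3, 21.3 and 21.4 CPM in M5. It rose in M5_O5 by 0.90 ± 0.09 on the log2 scale (adjusted p = 4.58e-06, edgeR), and all 4 M5_O5 libraries were above the M5 libraries.

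SLC6A15, a sodium-dependent carrier of branched-chain amino acids and proline, was at 8.89, 7.18, 7.7 and 7.78 CPM in M5_O5 and at 4.82, 3.53, 4.01 and 3.8 CPM in M5, which is 0.97 ± 0.13 on the log2 scale (adjusted p = 6.61e-05, edgeR). SLC1A3, a glutamate and aspartate carrier, was at 7.61, 5.51, 6.4 and 6.3 CPM in M5_O5 and at 7.37, 3.33, 1.97 and 1.68 CPM in M5. M5 replicate 1 lay within the M5_O5 range, the adjusted p was 0.0427 (edgeR) at a log2 fold change of 0.88 ± 0.32, and the call was lost without any 1 of the other libraries, with values from 0.63 to 0.94, and in DESeq2 (adjusted p = 0.162). Without M5 replicate 1 both SLC1A3 (1.47) and SLC6A15 (1.06) passed the fold of 2, and SLC6A15 also did so without M5_O5 replicate 2 (1.01). SLC7A8 (LAT2), which also pairs with SLC3A2, was the remaining one of the 4, at 0.24 ± 0.07 on the log2 scale (adjusted p = 0.0193, edgeR), and it lost the call without M5_O5 replicate 2 (0.23) or replicate 4 (0.21).

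Transporters of internal membranes made up a pair of further lists. Of 7 lysosomal transporters, 6 were tested and 1 was higher, against 19.5% of all tested genes, with a median log2 fold change of 0.04. This was SLC66A1, a lysosomal exporter of lysine and arginine, at 0.24 ± 0.08 (adjusted p = 0.0326, edgeR), and the call was lost without M5_O5 replicate 2 or 3 or M5 replicate 1 or 3. Of 13 mitochondrial carriers, 11 were tested, 3 were higher and 0 lower, against 19.5% and 17.6%, with a median of 0.11. SLC25A12, an aspartate and glutamate carrier, rose by 0.75 ± 0.11 (adjusted p = 0.000139, edgeR), SLC25A38, a glycine carrier needed for heme synthesis, by 0.57 ± 0.12 (adjusted p = 0.00237), and SLC25A15, an ornithine carrier, by 0.43 ± 0.11 (adjusted p = 0.00792), a call that cyclic loess scaling did not give (0.25, limma adjusted p = 0.103). Over the 3 lists, 8 genes were higher at an adjusted p under 0.05, and 5 without M5_O5 replicate 2.

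Enzymes that use the carried amino acids were examined in the same way, in lists also chosen with earlier results of these data known. Of 11 enzymes of glutamine, asparagine, serine and glycine metabolism, 10 were tested, 8 were higher and 1 was lower at an adjusted p under 0.05, 4 of them higher by at least 2-fold, against 19.5%, 17.6% and 2.87% of all tested genes, and the median log2 fold change was 0.78. ASNS, which makes asparagine from aspartate and glutamine, was at 2.5, 7.98, 8.65 and 4.58 CPM in M5_O5 and at 1.09, 1.11, 0.79 and 0.872 CPM in M5. Its log2 fold change was 2.61 ± 0.37 (adjusted p = 0.000113, edgeR), and M5_O5 replicates 2 and 3 were the highest, as for SLC1A4, SLC1A5, SLC7A5 and SLC3A2.

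The serine synthesis genes also rose. PSAT1 was at 24.5, 40.7, 40.5 and 34.3 CPM in M5_O5 and at 10.2, 3.72, 4.67 and 6.04 CPM in M5, which is 2.52 ± 0.23 on the log2 scale (adjusted p = 3.12e-06, edgeR). PSPH, which catalyses the last step, rose by 1.37 ± 0.16 (adjusted p = 2.14e-05), and PHGDH, which catalyses the first, by 1.19 ± 0.28 (adjusted p = 0.00477), with overlapping groups. M5 replicate 1 was at 13.1 CPM for PHGDH and the other M5 libraries at 3.69 to 6.27, and the log2 fold change was 1.70 without that library and 0.98 without M5 replicate 3. The 1 gene that was lower was GLUL, glutamine synthetase, at -0.36 ± 0.05 (adjusted p = 7.5e-05), which was named after its value was seen.

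Of 10 genes of cystine and glutathione metabolism, to which SLC7A11 supplies its substrate, 9 were tested, 5 were higher, 1 was lower and 2 of the higher ones passed the fold of 2, against 19.5%, 17.6% and 2.87% of all tested genes, with a median log2 fold change of 0.27. With 1 library left out, 4 or 5 were higher: GCLM, a subunit of the enzyme that starts glutathione synthesis, lost its call without M5_O5 replicate 1 or 4 or without M5 replicate 2, 3 or 4, and in both TPM fits. CHAC1, which degrades glutathione, was at 3.49, 21.6, 23.5 and 13.3 CPM in M5_O5 and at 2.77, 3.33, 3.29 and 2.55 CPM in M5. M5_O5 replicate 1 was close to the M5 libraries, and the log2 fold change was 2.37 ± 0.43 (adjusted p = 0.000772, edgeR). CTH, which makes cysteine from cystathionine, rose by 1.62 ± 0.22 (adjusted p = 0.0001) on 10 to 58 counts a library, with 0.94 on log2(TPM + 1), and GSR, which regenerates glutathione, by 0.66 ± 0.09 (adjusted p = 7.44e-05). The lower gene was GPX4, a peroxidase that uses glutathione against lipid peroxides, at -0.44 ± 0.08 (adjusted p = 0.000745), also named after its value was seen.

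Of 17 genes that sense amino acids or act in the response to their lack, 16 were tested, 4 were higher and 0 lower at an adjusted p under 0.05, against 19.5% and 17.6% of all tested genes, and 0 reached a fold of 2 in edgeR or DESeq2, with a median of 0.15. Without M5_O5 replicate 3 or M5 replicate 3 the 4 were reduced to 2, since RPTOR and MTOR lost the call, and MTOR also lost it without M5_O5 replicate 2 or M5 replicate 4. TRIB3, a target of ATF4, was at 55.6, 106, 110 and 78 CPM in M5_O5 and at 44.6, 62.5, 59.4 and 58.2 CPM in M5, which is 0.63 ± 0.17 on the log2 scale (adjusted p = 0.0089, edgeR) with overlapping groups. EIF2AK4 (GCN2), the kinase that senses uncharged tRNA, rose by 0.32 ± 0.06 (adjusted p = 0.000766), and RPTOR, a subunit of the mTORC1 kinase complex, by 0.25 ± 0.08 (adjusted p = 0.0275). ATF4 itself had a log2 fold change of 0.20 ± 0.10 (adjusted p = 0.121) and passed the test without M5_O5 replicate 1, at 0.30 (adjusted p = 0.00792, edgeR), and at 0.32 to 0.33 with library size scaling, cyclic loess or TPM.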

How the data were processed

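Messenger RNA libraries were prepared from total RNA of HaCaT cells. The authors aligned the reads that passed filtering by HISAT2, and their methods name StringTie for read counts per gene, while the table has 1 row per transcript. HISAT2 2.1.0, Bowtie2 2.2.5, RSEM 1.2.8 and the mouse build mm10 stand in the submitters' processing notes, although the rows carry human RefSeq and Entrez identifiers, so the counted genes are given no coordinates. The deposited estimated counts were not normalized and were fractional in 90.1% of transcript values above 0 (more than 1e-06 from a whole number). The deposited TPM and the deposited FPKM divide by transcript length and by library totals.

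Estimated counts of 86639 transcripts were summed to 17131 Entrez genes and rounded. The RefSeq table of GRCh38.p14 gave symbols for 17072 genes, and the share of counts on the 59 without one did not exceed 0.0201% in any library. Genes that passed filterByExpr (12434) were scaled by TMM and compared by title with edgeR's quasi-likelihood test (edgeR 4.0.16, R 4.3.3), with p-values adjusted by the Benjamini-Hochberg method. The biological coefficient of variation was 7.42%. Each SE is the log2 fold change divided by the root of its F value. A chi-square of counts between replicates, divided by the number of genes, was 2.02 to 16.53 in M5 and 3.03 to 11.19 in M5_O5, above sampling noise, and each library was treated as a separate sample. It was 10.37 to 16.53 for pairs with M5 replicate 1. For M5_O5 replicate 1 it was 10.72, 11.19 and 7.18 against replicates 2, 3 and 4, which gave 3.03 to 7.18 among themselves. The fits were repeated with DESeq2 1.42.0, with limma 3.58.1 on log2(TPM + 1), log2(TPM + 0.1) and cyclic loess values, with other scalings and filters, with the replicate number as a block and without each single library.

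The 10 genes and all lists were chosen with earlier results of these data known. Besides these 10, the genes named were those of each other list past an adjusted p under 0.05 and a fold of 2, filled up to 3 by size of change among genes past that p, the 5 genes that vary most like the 10, and PBK. Exceptions are stated beside their values. Experiments other than RNA sequencing were left out. Start windows came from RefSeq on GRCh38.p14.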

Additional observations from a re-analysis of the deposited data

Results flagged for a closer look

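SLC1A5, the glutamine exchanger ASCT2, was at 181 CPM in M5 replicate 2 and at 156 to 157 CPM in the other 3 M5 libraries, so that 1 library lay far from the rest of its group. Of 64 groups of 4 libraries examined in this way, 1 was set apart, and chance alone gives about 3.2.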

How the results depend on the processing

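Over 17 alternatives, 153 log2 fold changes of the 9 tested transporter genes were computed, of which 138 moved by less than the spread between replicates, 11 moved by more and 4 changed sign. The sign changes were SLC1A4 at 0.00 with library size scaling and at 0.01 on log2(TPM + 1) and on log2(TPM + 0.1), and SLC38A2 at 0.01 with cyclic loess. SLC7A11 ranged from 0.80 to 1.13, SLC3A2 from 0.36 to 0.54 and SLC7A1 from 0.35 to 0.54. The median of all tested genes was 0.13 with library size scaling, 0.12 on log2(TPM + 1) and 0.13 on log2(TPM + 0.1), against 0.01, and the median of the 9 genes was 0.27 to 0.43.

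Of all tested genes, 357 were higher and 41 lower at an adjusted p under 0.05 and a fold of 2, and 2420 and 2192 at that p alone. With library size scaling 3858 were higher and 1008 lower at the p alone, and 25 lower at the fold. Cyclic loess gave 202 higher and 69 lower at the fold, and no filter gave 71 lower. Limma on log2(TPM + 1) gave 144 higher and 8 lower at the fold and 761 lower at the p alone, and on log2(TPM + 0.1) 18 and 768 lower. Leaving out 1 library gave 334 to 465 higher and 41 to 52 lower at the fold.

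Of the 9 genes, 1, SLC7A11, passed the fold of 2 with library size scaling, upper quartile scaling and log2(TPM + 0.1), and 0 to 1 did with 1 library left out. At the p alone 0 to 1 were lower with 1 library left out, the 1 being SLC38A2 without M5 replicate 2. Of the other transporters, 2 passed the fold with library size scaling, 1 with upper quartile scaling, 1 on log2(TPM + 1), 3 on log2(TPM + 0.1) and 0 to 2 with 1 library left out. At the p alone, 13 were higher with library size scaling, 5 to 9 with 1 library left out, and 0 to 1 lower, and 1 was lower with cyclic loess. With library size scaling more of all tested genes were called higher too, as given above, and their median was 0.13. It was 0.07 with upper quartile scaling. These counts are thus not a result about the transporters alone. Of the enzymes and sensors, 2 to 4 were lower with 1 library left out, 4 without M5 replicate 1.

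The libraries share replicate numbers 1 to 4, but the deviations of same-numbered libraries correlated at 0.209, 0.099, -0.004 and 0.013, and not every library correlated best with its own number, so the numbers were not taken to pair them. With the number as a replicate block, 2703 genes were higher and 2552 lower at the p alone, and 359 and 41 at the fold. In that fit 1 of the 9 genes was lower at the p alone, SLC38A2, 1 other transporter was lower, and 4 enzymes and sensors were lower, while SLC7A5 (0.17), SLC6A6, SLC25A22, TXNRD1, SESN3 and ATF4 (0.19, adjusted p = 0.0107, edgeR) were gained as higher. The strict element TTGCATCA occurred in windows of 2 of the 9 genes with a window and in windows of 1.08% of all genes, while TGATGNAA occurred in windows of 5 of the 9. SLC43A1 and low transcripts are limited by depth, and intervals of estimated counts were not computed.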

Other observations

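The genes outside the family that followed the mean deviation of the 9 tested transporter genes most closely within the groups were taken from 9164 genes with a mean log2 CPM of at least 3. They were TACC2, a centrosomal coiled-coil protein (r = 0.972 over 8 libraries, 0.943 without M5 replicate 1), IL20RB, a receptor chain for IL-20 family cytokines (0.968 and 0.941), ADAM28 (0.954 and 0.956), FGFR2, a fibroblast growth factor receptor (0.952 and 0.908) and C17orf75 (0.951 and 0.901). Their mean levels were 155, 38.1, 8.85, 10.9 and 9.72 CPM. They were the highest of many genes over few libraries, and nothing is said of shared function.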
